A study of Drosophila melanogaster with 12 samples.

Results

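Larval haemocytes, the blood cells of Drosophila melanogaster, were followed in wing imaginal disc RNA through 7 of their genes, Hml, NimC1, eater, He, Pxn, crq and srp. The wing disc is the larval epithelial sac that forms the adult wing and thorax, and it makes no blood cells of its own. These transcripts were therefore taken as a readout of haemocytes attached to the dissected discs, although srp is also active in fat body. The genes did not keep a constant ratio to each other across the groups, so they do not give a single common measure. The 7 genes were chosen by symbol, and all 7 were found among the 17716 gene symbols of the deposited table of read counts. All 7 also passed the filter on low counts, which left 9444 genes for testing.

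In BDGP6 coordinates (the Ensembl name of dm6) the genes lie on 3 chromosome arms. On 3L, Hml (FBgn0029167) spans 13846054 to 13860001 on the plus strand and Pxn (FBgn0011828) 2601455 to 2630064 on the minus strand. On 3R, eater (FBgn0243514) spans 27095867 to 27099679 on the minus strand and srp (FBgn0003507) 15986152 to 16004085 on the plus strand. On 2L and on the minus strand, crq (FBgn0015924) spans 448254 to 453024, and He (FBgn0028430), at 13972096 to 13972947, is followed by NimC1 (FBgn0259896) at 13973158 to 13976769. Exons of Pxn share 2.54% of their bases with other genes on the same strand, and those of Hml, NimC1 and eater share none.

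Most larval haemocytes are plasmatocytes, phagocytes that circulate in the haemolymph or settle on tissues and that take up microbes and dead cells. Crystal cells, a smaller class, carry the phenoloxidases of the melanisation reaction, and lamellocytes are large flat cells that wrap objects too big to be engulfed. Plasmatocytes also lay down basement membrane proteins, and they are known to attach to discs whose epithelium is wounded or overgrown. Among the 7 genes, Hml (hemolectin) encodes a clotting protein, Pxn (peroxidasin) a secreted enzyme that crosslinks collagen IV, and NimC1 and eater phagocytosis receptors of the Nimrod family. He (Hemese) encodes a haemocyte surface protein, crq (croquemort) a CD36-like receptor for dead cells, and srp (serpent) a GATA transcription factor needed for blood cell and fat body formation.

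Each of the 12 libraries came from a pool of 60 discs dissected 6 days after egg laying, with 3 libraries in each of 4 groups. Wild-type (WT) larvae carried abxUbx-Flp, Act>y+>Gal4 with UAS eGFP, and FRT82B tubGal80 over FRT82B. N larvae carried the same set plus UAS Nicd, the active intracellular part of the receptor Notch, and NS larvae carried in addition scrib1, a mutation of the polarity gene scribble, on the FRT82B chromosome. In this arrangement Gal4 acts where recombination has removed its blocks, so N and NS discs hold altered and unaltered cells together. S larvae were w- and carried FRT82B scrib1 over the deficiency Df(3R)BSC752 without the driver chromosomes, so that all their cells were mutant and their background also differed from that of the other groups. For WT replicates 2 and 3 the genotype as written includes UAS Nicd too, although their condition reads wild type. A library pools the discs of many larvae, and p-values measure the spread between such pools.

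Library totals ran from 21024017 to 42407447 counts. Transcripts of scrib were at 129 to 208 CPM (counts per 1000000 counts of the library, with totals scaled by TMM) in S and 348 to 448 in WT, and those of the Notch gene N at 2020 to 2240 CPM in N and 652 to 885 in WT. NS replicate 3 stood apart, with scrib at 87.2 CPM and N at 501 CPM, against 394 and 434 CPM and 1600 and 1460 CPM in NS replicates 1 and 2. S replicate 3 had the lowest scrib and N levels of the S libraries, at 129 and 287 CPM. The exons of scrib cover 17197 bases, those of N 10150, those of Hml 11756 and those of He 673. How far long transcripts in general were low in NS replicate 3 and S replicate 3 was not tested.

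Markers of wing disc epithelium were present in all libraries but changed in S. nub, a wing field gene, lay at 272, 293 and 275 CPM in WT and at 75.5, 80.1 and 67.7 CPM in S (3.76-fold lower, edgeR adjusted p = 0.000325). Of 10 epithelial genes 4 fell in S, nub, vg, en and hh, and 0 rose (0 higher also at an unadjusted p under 0.05 and by DESeq2), where 10.6% of all tested genes were called lower. In N 2 rose and 0 fell (0 lower also at an unadjusted p under 0.05 and by DESeq2), and in NS 2 rose and 3 fell. Of all tested genes 12.5% were called higher in S, 1.05% higher and 2.03% lower in N, and 13.9% higher and 10.4% lower in NS. CPM are relative to all RNA of the library, epithelium included, and the part of this change in the haemocyte gene differences was not tested.

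Hml was the clearest of the 7 signals. It lay at 16.3, 12.9 and 22.8 CPM in WT replicates 1 to 3, at 15.8, 10.8 and 15.5 CPM in N, at 39.1, 110 and 166 CPM in S and at 23.6, 11.0 and 20.8 CPM in NS. All 3 S libraries lay above all 9 others, and the ranges of WT, N and NS overlapped. The summed level of the 6 genes other than crq was 32.2 to 61.8 CPM in WT, 29.0 to 39.6 in N, 76.6 to 349 in S and 44.5 to 81.8 in NS. In this sum S replicate 1 lay below NS replicate 1, and all NS libraries lay above all N libraries. Pxn made up 30.2 of the 44.5 CPM in NS replicate 2, the lowest NS library. Of the 6 genes, Pxn and NimC1 lay higher in every NS library than in every N library, while Hml, eater, He and srp overlapped. In pooled tissue, more haemocytes on the discs and more of these transcripts per haemocyte cannot be told apart. Whether cells other than haemocytes gave part of these transcripts was not tested.

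**Figure D1:**
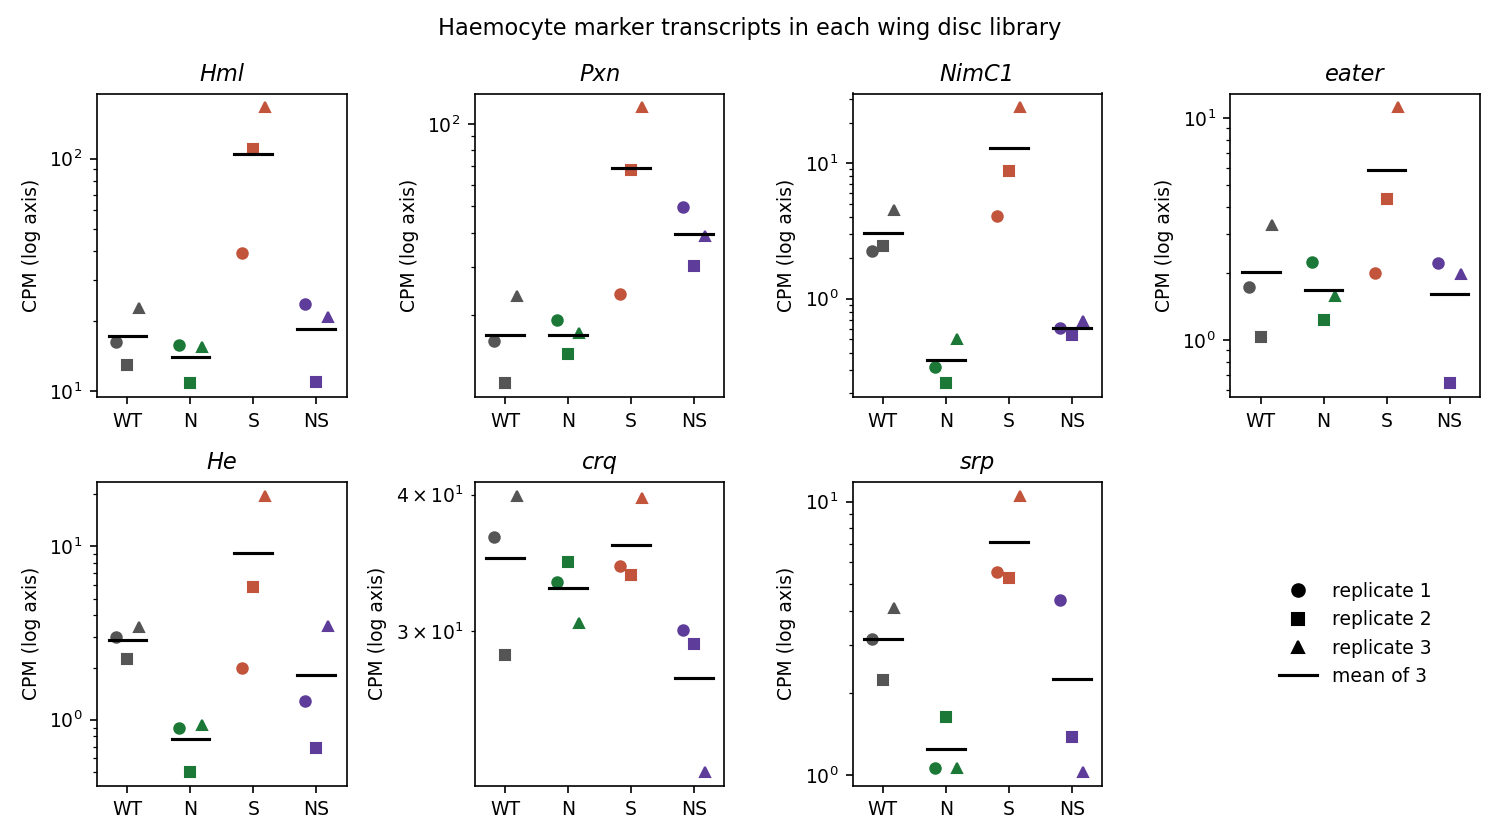
Levels of the 7 haemocyte marker transcripts in CPM (log axis, with a range of its own in each panel) in the 3 libraries of each group, WT, N, S and NS. Symbols mark the replicate number and the bar is the mean of 3. S holds the highest library in 6 panels, from 166 CPM for Hml to 10.5 CPM for srp, while crq lies between 22.3 and 39.9 CPM in all 12 libraries.

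S against WT asked how discs mutant for scribble differ from wild-type discs. Hml, Pxn and NimC1 rose in S, by 6.05-fold, 4.06-fold and 4.2-fold, and none of the 7 fell. In the quasi-likelihood test of edgeR, with p adjusted over all tested genes after Benjamini and Hochberg, the log2 changes were 2.60 ± 0.481 (SE) for Hml (adjusted p = 0.00372), 2.02 ± 0.478 for Pxn (0.013) and 2.07 ± 0.60 for NimC1 (0.0319). Beside these 3 of 7 called higher and 0 of 7 called lower, 12.5% and 10.6% of all tested genes were called higher and lower in S. The median log2 difference was 1.66 over the 7 genes and 0.041 over all genes tested. At an unadjusted p under 0.05, 4 members were higher and 0 lower, and DESeq2 called 3 higher and 0 lower.

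Pxn lay at 16.1, 11.3 and 23.6 CPM in WT and at 23.9, 68.1 and 115 CPM in S. The lowest S library thus lay just above the highest WT library. NimC1 lay at 2.26, 2.46 and 4.51 CPM in WT and at 4.10, 8.77 and 25.9 CPM in S, and S replicate 1 was inside the WT range. The NimC1 call was lost in a fit of S and WT alone (adjusted p = 0.0654) and without WT replicate 1 (adjusted p = 0.114), WT replicate 2 (0.118), N replicate 1 (0.0501) or S replicate 3 (0.141, with the log2 change at 1.05), and the Pxn call without WT replicate 1 (0.0531) or WT replicate 2 (0.0617). No single library ended the Hml call. With WT replicate 1 alone as wild type none of the 3 passed (adjusted p = 0.0952 for Hml).

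The other 4 genes did not pass in S. He, at 3.00, 2.23 and 3.44 CPM in WT, lay at 1.98, 5.81 and 19.6 CPM in S, so its libraries spread over a wider range in S than in any other group. Its log2 difference of 1.66 ± 0.77 had an edgeR adjusted p of 0.139. eater lay at 1.74, 1.03 and 3.30 CPM in WT and 2.01, 4.34 and 11.2 CPM in S, a difference of 1.53 ± 0.686 (edgeR adjusted p = 0.127). In both genes S replicate 3 was the highest of all 12 libraries.

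The lineage gene srp lay at 3.16, 2.23 and 4.07 CPM in WT and 5.51, 5.28 and 10.5 CPM in S. Its groups did not overlap, yet the difference of 1.17 ± 0.538 missed the threshold (edgeR adjusted p = 0.135) and passed with the correction for exon length (1.52, adjusted p = 0.0396). Together with Hml and Pxn this made 3 of 7 genes whose S libraries all lay above WT, against 27% of all tested genes. Exons of srp share 16.1% of their bases with the non-coding gene lncRNA:CR44133 on the same strand, so reads of the shared part cannot be assigned to either.

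crq lay at 36.6, 28.5 and 39.9 CPM in WT, 33.3, 34.7 and 30.5 in N, 34.4, 33.8 and 39.7 in S and 30.1, 29.2 and 22.3 in NS, and no comparison called it. Its S to WT difference was 0.04 ± 0.156, with an edgeR adjusted p of 0.869. In S replicate 3, where Hml was 166 CPM, crq stood within the WT range. Per kilobase of exon, crq was the highest of the 7 in WT, at 12.3 CPM per kilobase on average against 4.30 for He, 2.86 for Pxn, 1.48 for Hml, 0.935 for NimC1, 0.613 for eater and 0.541 for srp. Exons of crq overlap the gene ex, a growth regulator of the disc epithelium, on the opposite strand over 15.7% of their bases. Whether the counting used strand is not stated, and ex lay between 141 and 1200 CPM. The part of ex reads in the crq counts was not tested. crq is counted as a haemocyte marker throughout, and sums without it are named as such.

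**Figure D2:**
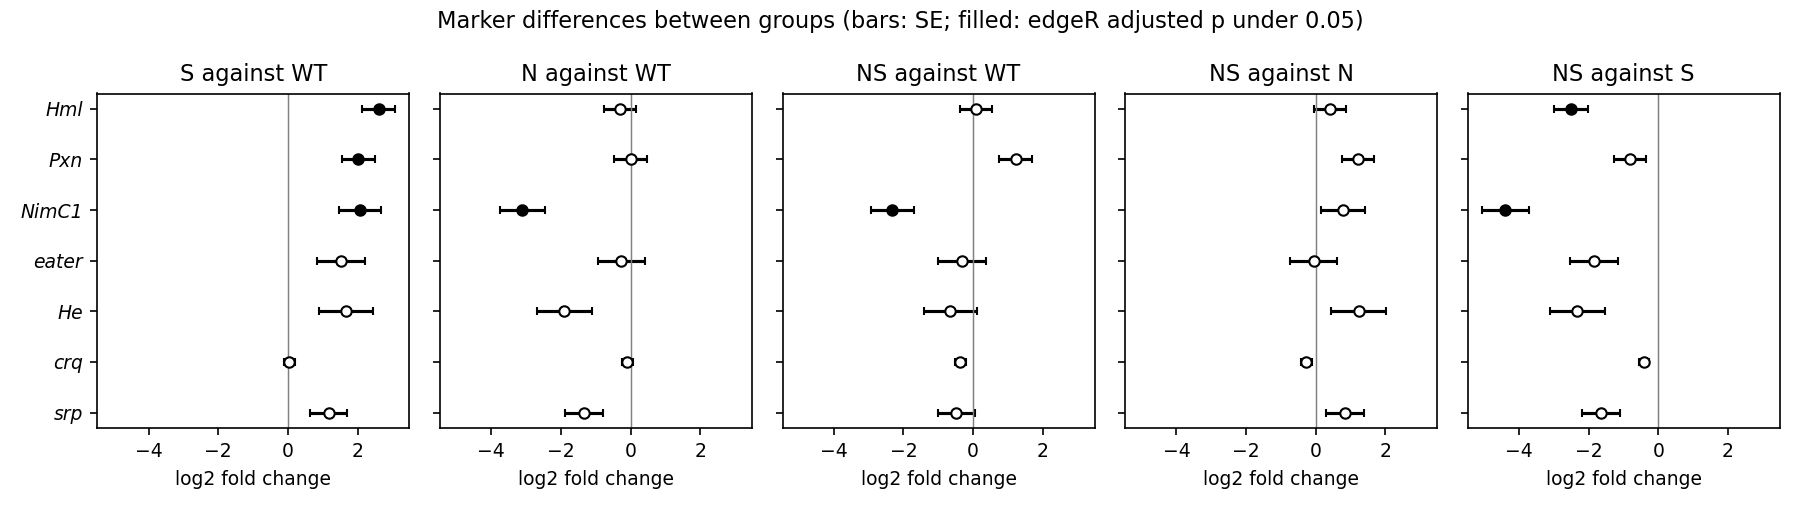
Log2 fold changes of the 7 genes in 5 comparisons, with SE bars; filled points have an edgeR adjusted p under 0.05. The points for S against WT lie to the right, up to 2.60 for Hml, those for NS against S lie to the left, down to −4.39 for NimC1, and crq stays within 0.41 of 0.

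N against WT asked what activated Notch alone does. NimC1 fell 8.61-fold, while Hml and Pxn, the 2 haemocyte genes with the highest counts after crq, had log2 differences of −0.31 ± 0.457 and 0.00 ± 0.463 (adjusted p = 0.884 and 1.0, edgeR). NimC1 was at 0.315, 0.237 and 0.508 CPM in N, from 13, 9 and 23 counts, against 88, 96 and 194 counts in WT, and its groups did not overlap. The log2 change of NimC1 was −3.11 ± 0.642 (edgeR adjusted p = 0.0296). That made 1 of 7 genes lower, against 2.03% of all tested genes, and 0 higher, against 1.05% (0 also at an unadjusted p under 0.05 and by DESeq2). The call was lost when any 1 library of WT or N was left out (adjusted p = 0.0603 to 0.162, with log2 changes of −2.72 to −3.46), with WT replicate 1 alone (0.229) and with the 3 most fat-rich libraries left out (0.108).

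He and srp were also lower in every N library than in every WT library without passing the test. He lay at 0.895, 0.50 and 0.927 CPM in N, a difference of −1.90 ± 0.787 (edgeR adjusted p = 0.264), and srp at 1.06, 1.63 and 1.06 CPM, a difference of −1.33 ± 0.545 (edgeR adjusted p = 0.256). With NimC1 this made 3 of 7 genes, against 17.2% of all tested genes. In a fit of the N and WT libraries alone all 3 passed, at adjusted p = 0.0134 for He and 0.0414 for srp. eater, at 2.25, 1.24 and 1.59 CPM, overlapped WT.

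NS against WT asked what Notch activation and scribble loss do together. NimC1 fell 4.99-fold and lay at 0.608, 0.542 and 0.688 CPM, below every WT library, with the narrowest spread of the 7 genes in NS. The log2 change was −2.32 ± 0.622 (edgeR adjusted p = 0.0223), which made 1 of 7 genes lower against 10.4% of all tested genes. It was lost without WT replicate 3 (0.0659), NS replicate 1 (0.0519) or NS replicate 2 (0.0574) and with WT replicate 1 alone (0.256). No member was called higher by edgeR, where 13.9% of all tested genes were, although at an unadjusted p under 0.05 there was 1 and by DESeq2 there was 1, both Pxn.

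Pxn lay at 49.8, 30.2 and 39.1 CPM in NS, above every WT and every N library. It was the 1 gene of 7 whose NS libraries all lay above WT (21.7% of all tested genes) and NimC1 the 1 whose NS libraries all lay below (21.5%). The NS to WT difference of 1.22 ± 0.468 missed the threshold (edgeR adjusted p = 0.0817) and passed with the correction for exon length (1.84, adjusted p = 0.0367), with DESeq2 (0.0431), without S replicate 1 (0.019) and without S replicate 3 (0.0477). Hml did not follow it, at 0.09 ± 0.457 (edgeR adjusted p = 0.896), or 1.10 with the length correction (0.284). He at 1.29, 0.69 and 3.47 CPM, srp at 4.36, 1.38 and 1.03 CPM and eater at 2.22, 0.64 and 1.98 CPM overlapped WT. He, the shortest transcript of the 7, was highest in NS replicate 3, and srp was lowest there.

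NS against S and NS against N place the double condition beside each single one. S also differs from NS in background and in that all its cells are mutant, which cannot be told apart from Notch activation. Against S, Hml fell 5.67-fold and NimC1 20.9-fold, with log2 changes of −2.5 ± 0.479 and −4.39 ± 0.672 (edgeR adjusted p = 0.0163 and 0.00479). These were 2 of 7 genes called lower, against 2.18% of all tested genes, and 0 of 7 were called higher, against 1.51% (0 also at an unadjusted p under 0.05 and by DESeq2). In all, 4 of 7 lay below every S library, Hml, NimC1, crq and srp, against 9.11% of all tested genes. DESeq2 called 4 lower, He and srp being the further 2 (adjusted p = 0.0327 and 0.0389). NS and S libraries of equal number deviated together, and a replicate block in the fit of all 12 libraries kept both calls (−2.47 and −4.08, adjusted p = 0.0227 and 0.00392). With that block in a fit of NS and S alone, Hml missed the threshold (−2.37, adjusted p = 0.139) and NimC1 passed (0.0473). The Hml call was also lost without NS replicate 2 (0.0624), with WT replicate 1 alone (0.0589), in a fit of NS and S alone (0.171) and with the length correction (−2.03, adjusted p = 0.132), and NimC1 was lost in the fit of NS and S alone (0.0765).

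Against N, none of the 7 genes was called in NS by edgeR or DESeq2, where edgeR called 7.8% of all tested genes in either direction. At an unadjusted p under 0.05 there was 1, Pxn, at 1.22 ± 0.468 (edgeR adjusted p = 0.131, or 0.0399 without S replicate 1). NimC1 was low in both groups, with the highest N library at 0.508 CPM and the lowest NS library at 0.542 CPM. NimC1 and Pxn lay higher in every NS library than in every N library and crq lower, 2 and 1 of 7 genes against 20.5% and 21% of all tested genes. The interaction compared the NS to N difference with the S to WT difference. Scribble loss was mosaic in NS but covered the whole animal in S, on another background. The interaction therefore does not isolate Notch activation. It was called for 1.28% of all tested genes and for 0 of the 7. Hml came nearest, at −2.20 ± 0.652 (unadjusted p = 0.00657, edgeR adjusted p = 0.177), and it was the 1 member called by DESeq2 (0.0259) and without S replicate 1 (0.0458). The comparisons share libraries, so they are not independent of each other.

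The order of the group means differed between genes. For Hml it was N, WT, NS and S, where N, WT and NS lay within each other's spread and S lay apart. For Pxn it was WT and N at 17.0 CPM each, then NS at 39.7 ± 9.78 CPM and S at 69.2 ± 45.8 CPM (SD, n = 3), where NS and S overlapped. For NimC1 it was N at 0.353 ± 0.139, NS at 0.613 ± 0.0734, WT at 3.08 ± 1.25 and S at 12.9 ± 11.5 CPM, where WT and S overlapped and N and NS differed by less than the test could call. He and srp had the order N, NS, WT and S, with every neighbouring pair overlapping except WT and S for srp, and eater the order NS, N, WT and S with every neighbouring pair overlapping.

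Counts relative to Hml within a library do not depend on library size. They can depend on how well long transcripts were kept, as Hml has the longest exons of the members (11756 bases). There were 13.9, 19.0 and 19.8 NimC1 counts per 100 Hml counts in WT and 10.5, 7.99 and 15.6 in S, against 1.99, 2.19 and 3.27 in N and 2.58, 4.91 and 3.31 in NS. The 6 libraries of N and NS thus all lay below the 6 of WT and S. WT replicates 2 and 3, whose genotype text lists UAS Nicd, stood with WT replicate 1 in this ratio. This ratio was chosen after its values were seen, and it was not tested.

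Pxn took another course relative to Hml. Per 100 Hml counts there were 98.7, 87.5 and 104 Pxn counts in WT, 122, 134 and 111 in N, 61.0, 62.1 and 69.5 in S and 211, 274 and 188 in NS, so that the 4 groups did not overlap. For He the values were 18.4, 17.2 and 15.1 in WT and 5.67, 4.62 and 5.97 in N, with 5.07 to 11.8 in S and 5.49 to 16.7 in NS. Both upper ends, 11.8 and 16.7, were those of replicate 3, and He has the shortest exons of the members (673 bases). For eater there were 3.95 to 6.75 counts per 100 Hml counts in S, 5.80 to 9.53 in NS, 7.92 to 14.5 in WT and 10.2 to 14.3 in N, so that S overlapped NS and lay below WT and N. The 7 genes therefore did not keep 1 ratio to each other across the groups. None of these ratios was tested, and how often other genes part the groups in their ratio to Hml was not counted. Hml, the denominator, was itself called higher in S against WT and was not called in NS against WT.

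**Figure D3:**
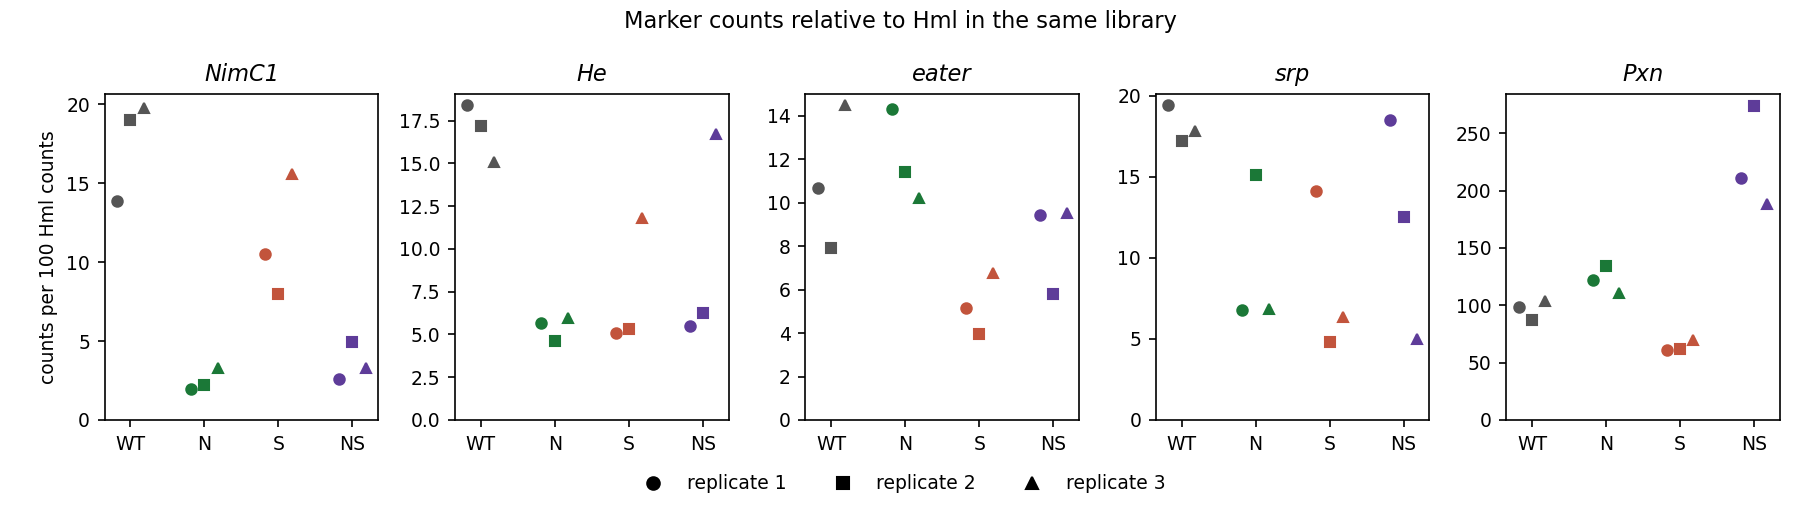
Counts of NimC1, He, eater, srp and Pxn per 100 Hml counts of the same library (linear axes from 0, with a range of its own in each panel), by group and replicate. NimC1 lies at 1.99 to 4.91 in N and NS and at 7.99 to 19.8 in WT and S, and Pxn reaches 274 in NS and 69.5 in S.

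He and NimC1 lie 210 bases apart on 2L in the cluster of Nimrod genes, which encode receptors and secreted proteins with epidermal growth factor-like repeats. Of 14 further Nimrod and class C scavenger receptor genes, 11 were tested and 4 rose in S, NimB1, NimB2, NimB4 and Sr-CI, while 0 fell (0 lower also at an unadjusted p under 0.05 and by DESeq2). Among all tested genes 12.5% were called higher and 10.6% lower in S. The median of the 11 was 2.15 on the log2 scale. NimB1 rose 16.7-fold, at 4.06 ± 0.654 (edgeR adjusted p = 0.00168), NimB4 7.67-fold, at 2.94 ± 0.663 (0.0103), and Sr-CI, a plasmatocyte scavenger receptor gene, 4.44-fold, at 2.15 ± 0.651 (0.0377). The count of 4 was 2 without WT replicate 1, WT replicate 3 or N replicate 3, 1 without WT replicate 2 and 0 with WT replicate 1 alone.

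Sr-CI lay at 4.41, 4.0 and 4.98 CPM in WT, 2.13, 1.71 and 2.58 in N, 5.64, 15.0 and 38.8 in S and 3.65, 1.72 and 7.48 in NS. Its S libraries lay above WT and its N libraries below. In N against WT 0 of the 11 were called (0 also at an unadjusted p under 0.05 and by DESeq2), with NimB1 at 0.411 to 0.721 CPM in WT and 0.419 to 0.532 CPM in N. Shares over all tested genes were 1.05% higher and 2.03% lower in N, and 13.9% higher and 10.4% lower in NS against WT. NimB1 was also called in NS, 3.71-fold above WT (1.89 ± 0.605, edgeR adjusted p = 0.0447), the 1 of the 11 that was, and this call was lost without any 1 library of WT or N and without S replicate 2, NS replicate 1 or NS replicate 3. Against S, 0 of the 11 were called in NS (5 lower at an unadjusted p under 0.05 and 3 lower by DESeq2), with a median of −1.75. Of all tested genes 1.51% were called higher and 2.18% lower there. NimB2, called in S at 4.03 ± 1.24 (edgeR adjusted p = 0.0396), had its highest levels in S replicate 1 (38.0 CPM), NS replicate 1 (15.4 CPM) and S replicate 3 (11.3 CPM), and the first 2 of these libraries were also the highest in fat body transcripts. Exons of NimB1 and NimB2 overlap on opposite strands over 5.97% and 5.37% of their bases, and those of He and NimB5 over 11.6% of He.

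**Figure D4:**
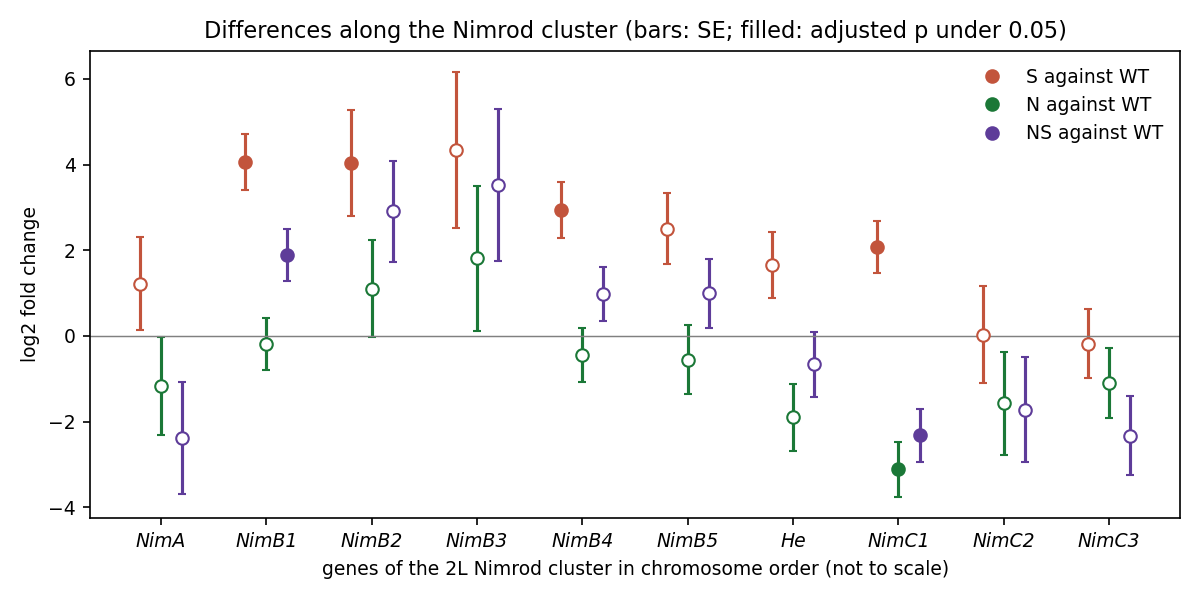
Log2 fold changes against WT of the tested genes of the 2L Nimrod cluster, in chromosome order, with SE bars; filled points have an edgeR adjusted p under 0.05. NimC1 is the gene with filled points below 0, at −3.11 in N and −2.32 in NS, beside 2.07 in S, and He lies at −1.90, −0.66 and 1.66 with open points.

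The other blood cell classes were followed by their own genes. The crystal cell phenoloxidase genes PPO1 and PPO2 varied widely within groups. PPO1 lay at 21.6, 20.2 and 44.8 CPM in WT, 10.6, 9.87 and 15.9 in N, 35.5, 70.7 and 152 in S and 20.3, 3.55 and 48.9 in NS. Its S to WT difference was 1.57 ± 0.766 (edgeR adjusted p = 0.156). Neither gene was called in any comparison (in S against WT 0 also at an unadjusted p under 0.05 and by DESeq2). In NS against S both were lower at an unadjusted p under 0.05 (−1.82 and −1.68, edgeR unadjusted p = 0.0391 and 0.0491), and DESeq2 called 0. Both genes were lower in every N library than in every WT library, as 17.2% of all tested genes were.

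Of 7 lamellocyte markers, 2 rose and 1 fell in S, where 12.5% and 10.6% of all tested genes rose and fell. atilla, a lamellocyte surface gene, rose 4.96-fold, from 3.52, 3.59 and 4.47 CPM in WT to 15.4, 16.0 and 26.0 CPM in S (2.31 ± 0.301, edgeR adjusted p = 0.000443), and cher, the filamin gene that many tissues also use, rose 4.39-fold (0.00358). PPO3, the lamellocyte phenoloxidase gene, fell 3.68-fold, from 1.62, 2.1 and 2.77 CPM to 0.470, 0.749 and 0.537 CPM (adjusted p = 0.0162). The 2 that rose were 4 without NS replicate 3, and the 1 that fell was 0 without WT replicate 2 or S replicate 1. atilla was also called in NS against WT, at 2.32 ± 0.301 with 15.1, 20.3 and 22.6 CPM, where Hml was not. In NS 2 of the 7 were called higher and 0 lower, against 13.9% and 10.4% of all tested genes. At an unadjusted p under 0.05 there were 2 lower, and DESeq2 called 2 lower. PPO3 and ItgaPS4, another of the 7, lay below every WT library in NS without passing (edgeR adjusted p = 0.0511 and 0.079). ItgaPS4 was called 4.91-fold lower in N (edgeR adjusted p = 0.0273), where 2.03% of all tested genes were called lower.

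Of 7 regulators of blood cell fate, 6 were tested, and lz, the Runx factor gene of crystal cells, rose 18.1-fold in S (4.17 ± 0.888, edgeR adjusted p = 0.00768). It lay at 0.077 to 0.179 CPM in WT and 1.20, 1.37 and 3.89 CPM in S. ush, kn and peb fell (adjusted p = 0.0103, 0.0063 and 0.007), and ush and kn are also patterning genes of the disc itself. Beside this 1 higher and 3 lower of 6, 12.5% of all tested genes were called higher and 10.6% lower in S. gcm, a regulator gene of glia and plasmatocytes, reached 3.26 CPM in S replicate 1, above the 0.898 CPM of the next library, and did not pass (edgeR adjusted p = 0.394). With WT replicate 1 alone as wild type, lz was not called and 1 gene was called lower.

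Of 11 genes for matrix and clotting proteins that blood cells secrete, 4 rose in S and 0 fell, and the number that rose was 1 with WT replicate 1 alone. At an unadjusted p under 0.05 there was 1 lower, DESeq2 called 0 lower, and without NS replicate 3 edgeR called 2 lower. The shares over all tested genes in S were 12.5% higher and 10.6% lower. Tg, the transglutaminase gene of the clot, rose 10.4-fold (3.38 ± 0.257, edgeR adjusted p = 1.72e-05), Glt, a matrix gene, 3.20-fold (0.00739), Tig, an integrin ligand gene, 2.58-fold (0.00931) and Cg25C, a collagen IV gene, 1.58-fold (0.0261). In NS, Tg was 9.63-fold above WT (edgeR adjusted p = 2.31e-05), whereas Cg25C and vkg, the 2 collagen IV genes, fell (−1.25 and −1.35, adjusted p = 0.000967 and 0.00105). Pxn, whose enzyme acts on collagen IV, stood above every WT library in NS without being called (edgeR adjusted p = 0.0817), while both collagen genes fell there. Of the 11 genes 1 was called higher and 4 lower in NS, against 13.9% and 10.4% of all tested genes. Ppn and LanB2 were among the 4 (−1.44 and −0.96, edgeR adjusted p = 0.0121 and 0.0332). Cg25C was also 3.75-fold lower in NS than in S (edgeR adjusted p = 0.000319).

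Signals known to act on blood cells were read from the same libraries. Of 11 such genes 7 rose in S and 0 fell (0 lower also at an unadjusted p under 0.05 and by DESeq2), and with WT replicate 1 alone 3 rose. Among all tested genes 12.5% were called higher and 10.6% lower in S. Pvf1, Pvf2 and Pvf3, the ligands of a receptor, Pvr, that haemocytes use for survival and migration, rose 6.30-fold, 2.82-fold and 3.19-fold (edgeR adjusted p = 0.000472, 0.0033 and 0.00471). upd1 and upd3, ligands of the JAK/STAT receptor, rose with log2 changes of 2.89 and 3.72 (adjusted p = 7.62e-05 and 0.000493, edgeR) and Mmp1, a matrix protease gene, by 2.16 (0.00135). Pvr, the Pvf receptor's gene, which disc epithelium also expresses, lay at 112, 115 and 83.4 CPM in WT and 126, 139 and 163 CPM in S and did not pass (0.46 ± 0.231, edgeR adjusted p = 0.165).

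In NS the same ligands took different courses. Pvf1 lay at 10.6, 9.66 and 5.05 CPM in WT, 6.65, 4.58 and 3.91 in N, 40.4, 45.4 and 73.5 in S and 38.2, 29.0 and 23.1 in NS. It rose in NS against WT (1.84 ± 0.341, edgeR adjusted p = 0.00396). upd1 and upd3 rose in NS too, 12.6-fold and 24.9-fold above WT (edgeR adjusted p = 2.31e-05 and 0.000174). Their means were 115 and 64.0 CPM in NS and 67.0 and 33.9 CPM in S, and neither was called in NS against S (edgeR adjusted p = 0.144 and 0.329). Pvf2, at 36.9, 29.5 and 28.6 CPM in NS and 53.8, 67.4 and 123 CPM in S, was lower in NS than in S (−1.36 ± 0.27, adjusted p = 0.0192), as was Pvf3 (−1.62 ± 0.324, adjusted p = 0.0207). With a replicate block in a fit of NS and S alone neither passed (adjusted p = 0.151 and 0.0786), while with the block over all 12 libraries both did (0.0409 and 0.0404). In N against WT 2 of the 11 rose and 2 fell, among them Pvf2, by 2.23-fold (edgeR adjusted p = 0.0483), and each count was 0 or 1 without any 1 library of WT or N. Of all tested genes 1.05% were called higher and 2.03% lower in N. Against N, 7 of the 11 genes rose in NS, where 4.19% of all tested genes did, 3 without N replicate 2 and 2 without N replicate 3.

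Markers of other tissues moved between single libraries. The 9 fat body genes summed to 316 to 955 CPM in WT, 354 to 3210 in N, 1210 to 13500 in S and 1140 to 7370 in NS, with S replicate 1 the highest. FASN1 carried most of this sum in S replicate 2 (1400 of 1520 CPM) and NS replicate 2 (1130 of 1140 CPM). In S replicate 1 (1790 of 13500 CPM) and NS replicate 1 (1200 of 7370 CPM) it carried a minor part. The other 8 genes summed to 146 to 763 CPM in WT, 28.4 to 2880 in N, 127, 477 and 11700 in S and 12, 1050 and 6170 in NS. S replicates 2 and 3 and NS replicate 2 thus stayed under the highest WT library. Of the 9 1 was called in S, FASN1, the fatty acid synthase gene (2.97 ± 0.44, edgeR adjusted p = 0.00099), where 12.5% of all tested genes were called higher. Lsp1beta, for a larval serum protein, reached 4340 CPM in S replicate 1 beside 37.5 and 175 CPM in S replicates 2 and 3. S replicate 1 was the S library with the least Hml. With the 3 most fat-rich libraries left out (S replicate 1, NS replicate 1 and N replicate 2), the S to WT difference of Hml was 2.99 (adjusted p = 0.00179), that of Pxn 2.43 (0.00378) and that of NimC1 2.5 (0.0212).

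The 10 neuronal genes summed to 268 CPM in S replicate 1 and 20.4 to 83.6 CPM elsewhere, and brp, a synaptic gene, reached 73.6 CPM there against 0 to 0.513 CPM in the other libraries. Of the 9 neuronal genes tested 1 rose in S, para, a sodium channel gene, from 0.103, 0.154 and 0.0698 CPM in WT to 4.80, 0.25 and 0.537 CPM in S (4.06 ± 1.13, edgeR adjusted p = 0.027). The 6 tracheal genes summed to 749 to 1660 CPM and the 7 muscle precursor genes to 446 to 805 CPM over all 12 libraries. Of the tracheal genes 1 was called higher and 3 lower in S, 1 lower in N, and 1 higher and 3 lower in NS. Of the muscle precursor genes 0 were called in S (1 in each direction at an unadjusted p under 0.05, 0 by DESeq2), 1 in each direction in N, and 1 higher and 4 lower in NS. Over all tested genes 12.5% were called higher and 10.6% lower in S, 1.05% and 2.03% in N, and 13.9% and 10.4% in NS. In N, where NimC1 fell, twi, a muscle precursor gene, fell 2.36-fold (edgeR adjusted p = 0.0109) and btl, a tracheal gene, 2.62-fold (0.0376). In NS, where NimC1 also fell, both fell too, by 2.14-fold and 4.48-fold (edgeR adjusted p = 0.00431 and 0.000891). Other genes of these lists went the other way. Ama, a muscle precursor gene, rose 2.1-fold in N and in NS (edgeR adjusted p = 0.00649 and 0.00132). serp, a tracheal gene, rose 1.97-fold in NS (0.00516). The part of muscle precursor and tracheal cells in the haemocyte gene differences was not tested.

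**Figure D5:**
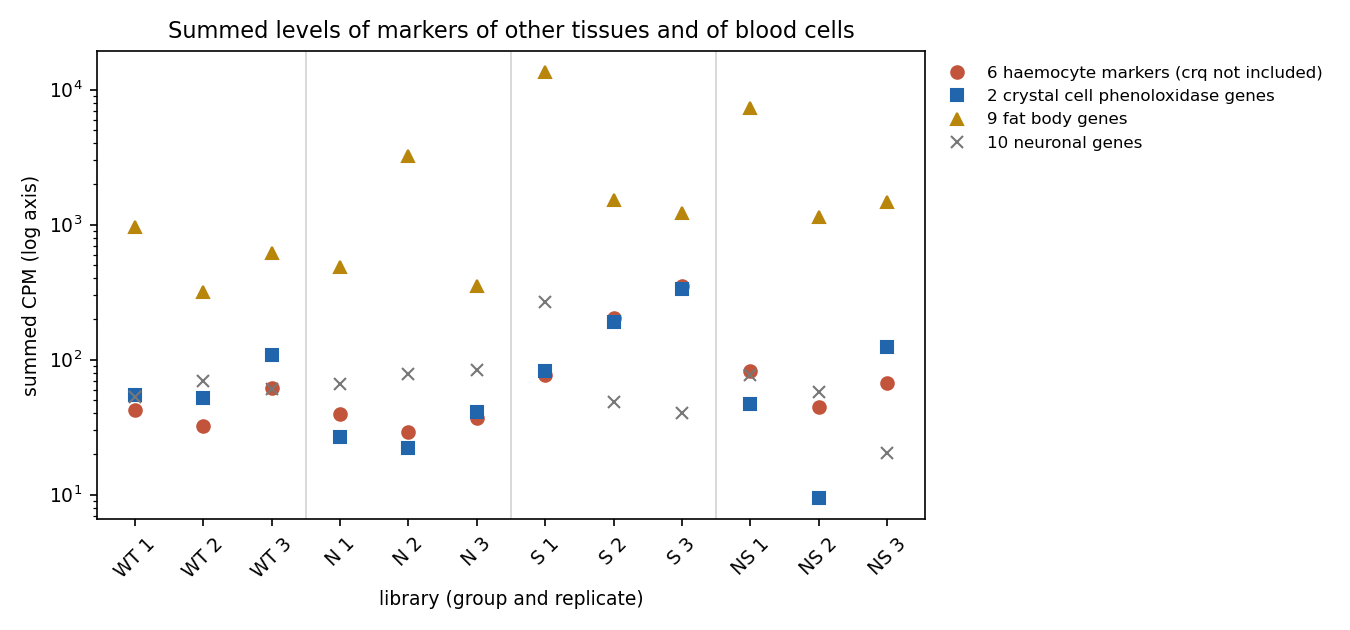
Summed CPM (log axis) of the 6 haemocyte markers other than crq, of 2 crystal cell genes, of 9 fat body genes and of 10 neuronal genes in each of the 12 libraries. Haemocyte and crystal cell sums are highest in S replicate 3, at 349 and 332 CPM, and the fat body and neuronal sums are highest in S replicate 1, at 13500 and 268 CPM.

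The genes whose profile was most like that of a member were sought among 2153 genes that averaged 1 CPM or more and ranged over 2 or more log2 units. Likeness was the mean absolute difference between log2 profiles over the 12 libraries, each centred on its own mean, so the values describe and do not test. Closest to Hml were CG1092 (0.21), NimB4 (0.327), NtR (0.347), Ance-5 (0.388), CG30046 (0.39) and CG34331 (0.399). CG1092 lay at 1.98, 1.36 and 3.44 CPM in WT and 4.2, 7.81 and 18.1 CPM in S. Among the members themselves, eater was closest to Hml (0.466), then Pxn (0.538), srp (0.703), He (0.713), crq (0.911) and NimC1 (1.047).

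The profile nearest to He was that of CG31431 (0.287), followed by Sr-CI (0.297). For eater these were CG1092 (0.371) and Karl (0.386), for Pxn CG3168 (0.358) and CR43629 (0.365), for srp CG30046 (0.371) and Glt (0.377), and for crq CR43875 (0.203) and Lap1 (0.25). crq itself, at 22.3 to 39.9 CPM, ranged over less than the 2 log2 units asked of the ranked genes. Flatter genes were not ranked and may lie nearer to crq. Nearest to NimC1, at a greater distance, were Timp (0.565), the gene of a matrix protease inhibitor, and CG9192 (0.615). CG9192 lay at 26.0, 15.5 and 18.4 CPM in WT, 5.59, 3.29 and 3.88 in N, 114, 134 and 315 in S and 4.97, 2.86 and 7.40 in NS. These genes were picked for their likeness over the same 12 libraries, so their differences between groups restate that choice and add no evidence. NimB4, Sr-CI and Glt also belong to the gene lists, and their test results stand there. Exons of Timp overlap Syn on the opposite strand over 15.7% of their bases, those of Karl an antisense RNA over 24.2% and those of CR43875 2 other genes over 50.8%.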

How the data were processed

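The authors deposited 1 table of raw read counts per gene symbol and library. Messenger RNA from pooled discs went into a stranded kit, per the labels' protocols, and per the submitters' processing notes TopHat2 2.0.9, Bowtie2 2.1.0, HTSeq, edgeR, DESeq and the build dm6 were used. Neither the annotation release nor whether counting respected strand is given in the sources used here. The 2 blank lines of the table were left out.

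The quasi-likelihood test came from edgeR 4.0.16 (R 4.3.3). After filterByExpr, 9444 genes remained, libraries were TMM-scaled, and 1 robust model with a coefficient for each group took in all 12 libraries (8 residual degrees of freedom). Calls were made at an adjusted p (Benjamini-Hochberg, all tested genes) below 0.05. For a log2 change, SE stands for the change over the root of its F statistic. Positions, exon lengths and overlaps are those of the Ensembl annotation of BDGP6. To it, 13320 symbols matched directly, 4213 through a synonym and 183 not at all. The method was tested on simulated data.

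The members and lists were chosen with earlier results of these data known. The text names all members, up to 4 genes of each list by adjusted p in S against WT, and the genes nearest in profile. Further list genes, as well as ex and brp, were picked after their values were seen. Same-numbered NS and S libraries deviated together in all 3 pairs, with correlations across genes of 0.456, 0.493 and 0.327, which held for no other 2 groups. The main model has no term for this pairing. Where a block for replicate number ended an NS against S call, its value stands beside the result. No 2 replicates were identical. Tried as alternatives were DESeq2 1.42.0, RLE factors, library totals, all genes unfiltered, fits of only the groups compared, a block for replicate number, omission of single libraries and of 2 sets of libraries, WT replicate 1 as the sole control, and a lowess correction for exon length with a span of 0.3. The block in a fit of NS and S without the other groups was chosen after seeing the data.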

Additional observations from a re-analysis of the deposited data

How the results depend on the processing

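Counts of called members are given here first. In S against WT the 3 called higher were 4 with the length correction (srp added), 2 in the fit of S and WT alone and without NS replicate 3 and S replicate 3 (NimC1 lost in both), 0 with WT replicate 1 alone, and 1 to 3 with single libraries left out. In N against WT the 1 called lower was 3 in the fit of N and WT alone, 2 without NS replicate 3 and S replicate 3, 0 with WT replicate 1 alone, 0 without the 3 libraries richest in fat body RNA, and 0 to 1 with single libraries left out. In NS against WT the 0 called higher were 1 with DESeq2 and with the length correction and 0 to 1 with single libraries left out, and the 1 called lower was 0 with WT replicate 1 alone and 0 to 1 with single libraries left out. In NS against N the 0 called higher were 1 in the fit of both groups alone and 0 to 1 with single libraries left out. In NS against S the 2 called lower were 4 with DESeq2, 0 in the fit of both groups alone, 1 with a replicate block in that fit, 1 with WT replicate 1 alone, and 1 to 3 with single libraries left out. In the interaction the 0 called lower were 1 with DESeq2 and 0 to 1 with single libraries left out. A replicate block over all 12 libraries changed none of these counts. Signs turned in uncalled log2 differences. For crq in S against WT these were −0.08 by library totals, −0.01 with WT replicate 1 alone, −0.05 without NS replicate 3 and S replicate 3, and −0.09 to 0.15 with single libraries left out. For Pxn in N against WT they were 0.02 without the low-count filter, 0.00 in the fit of both groups alone, 0.06 with the replicate block, 0.10 with WT replicate 1 alone and without the fat-rich libraries, and −0.22 to 0.32 with single libraries left out, which gave −0.57 to 0.30 for eater and −0.22 to 0.02 for crq. For Hml in NS against WT they were −0.08 by library totals, −0.01 without NS replicate 3 and S replicate 3, −0.12 without the fat-rich libraries and −0.12 to 0.37 with single libraries left out, which gave −0.64 to 0.23 for eater. In NS against N, eater was at 0.20 with the length correction and −0.36 to 0.32, and srp at −0.06 to 1.19, with single libraries left out. In the interaction, srp was at 0.44 without NS replicate 3 and S replicate 3, and with single libraries left out at −1.24 to 0.09, and He at −1.31 to 0.83. The cause was not tested. Of 924 member values under alternatives, 843 kept direction and call. Library totals moved the median of all genes to −0.127 in NS against WT and −0.104 in NS against N. Counts of 9 to 24 for NimC1 in N and NS limit its fold changes. Counts over all tested genes moved more: over the alternatives the 1181 called higher in S against WT ran from 268 to 2268, the 1000 lower from 416 to 2312, the 99 higher in N against WT from 9 to 599 and the 192 lower from 51 to 867, the 1308 higher in NS against WT from 243 to 1639 and the 986 lower from 398 to 1611, the 396 higher in NS against N from 139 to 906 and the 341 lower from 155 to 792, and the 143 higher in NS against S from 19 to 745 and the 206 lower from 23 to 523.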
